A study of Arabidopsis thaliana with 6 samples.

Results

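The genes that build chlorophyll and those that dismantle it were compared between sme1 and wild-type shoots of Arabidopsis thaliana. The 40 genes were taken from a list of locus identifiers, which covers the enzymes from glutamyl-tRNA reductase to chlorophyll a oxygenase, both ferrochelatases, the regulators FLU, GUN4, GLK1 and GLK2, and the proteins of chlorophyll breakdown. They are 40 of the 37869 genes in the deposited table, and they have 140 of its 76209 transcripts. The tested group was sme1-1, which the sample labels write smeb-1, a mutant of SME1 (SmE-b, AT2G18740), which encodes a core protein of the ring carried by spliceosomal small nuclear ribonucleoproteins. It was set against wild-type Col-0, the background of the mutant, with 3 libraries of each genotype. Both came from shoots of seedlings aged 3 weeks, kept in vitro at 21 °C on medium with 1% sucrose under 16 h of light and 8 h of darkness, with no stress treatment. Whether replicate libraries stem from different plants is not stated in the labels, so every p-value rests on the spread among these libraries alone, and that spread may be technical. When in the day the shoots were cut is not given in the sources. Levels are TPM, a transcript abundance that is scaled per length and to the same total in every library and that keeps no sequencing depth, so no counting interval or detection limit can be given.

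Chlorophyll is made in the plastid from glutamate. Glutamyl-tRNA reductase and glutamate-1-semialdehyde aminotransferase make 5-aminolevulinate, from which a common series of enzymes makes protoporphyrin IX. Ferrochelatase then inserts iron, which gives haem, or Mg-chelatase inserts magnesium, which leads to chlorophyll a and, through chlorophyll a oxygenase, to chlorophyll b. In senescing leaves chlorophyll b is reduced to chlorophyll a, Mg-dechelatases of the STAY-GREEN family remove the magnesium, and pheophytinase, pheophorbide a oxygenase and red chlorophyll catabolite reductase turn the pigment into colourless products. Free intermediates of both routes are phototoxic, and the transcription factors GLK1 and GLK2 drive genes of synthesis and of the light-harvesting antenna.

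Genes of the early steps of synthesis were lower or did not pass the test in sme1, while most genes of breakdown were higher. None of the 12 genes from glutamyl-tRNA reductase to protoporphyrinogen oxidase rose, and 4 of them (33.3%) fell. Among all genes tested 47.3% rose and 20% fell. Of 11 breakdown genes 9 rose, among them SGR2 to 6.74 ± 1.45 TPM in sme1 against 0.821 ± 0.102 TPM in wild type (SD, n = 3 each), and 1, NYC1, fell. SGR2 and CLH2, both among these 9, averaged under 1 TPM in wild type and entered the test through their sme1 libraries. GLK1 averaged 135 ± 9.63 TPM in sme1 and 62.2 ± 2.07 TPM in wild type (SD, n = 3 each). The genes of the magnesium branch were mixed, with PORC and CAO among the risers and CHLM and CHLD among the fallers.

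These counts have to be read against a transcriptome in which most genes differed. A gene was called at a limma adjusted p under 0.05, over the 20100 genes that averaged 1 TPM or more, and its change is the difference of mean log2(TPM + 1), sme1 minus wild type. Of all genes tested 47.3% were called higher in sme1 and 20% lower, and the median gene changed by 0.22. All 40 chlorophyll genes were tested, and 19 of them (47.5%) were called higher and 7 (17.5%) lower, with a median change of 0.14. As a whole the chlorophyll genes were therefore called about as often as any gene, and what follows describes how the calls were distributed over the pathway. The 3 libraries of each genotype did not overlap for 28 genes, with 21 (52.5%) higher and 7 (17.5%) lower in sme1, beside 51% and 22.4% of all genes tested. The calls also depended on the scale. When each library was rescaled by median-of-ratios factors, which put the median gene at 0.00, 12 chlorophyll genes were called higher and 16 lower, beside 33.9% and 33.2% of all genes, while quantile normalization gave 19 higher and 9 lower, beside 30.4% and 36.3% of all genes. Without sme1 replicate 2 the number called lower was 11. Under all 3 scalings 12 chlorophyll genes were called higher and 7 lower. No share of all genes is given for calls under all 3 scalings, so these joint counts cannot be set against the transcriptome. A call that was lost under another scaling is named as such where the gene is described.

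**Figure D1:**
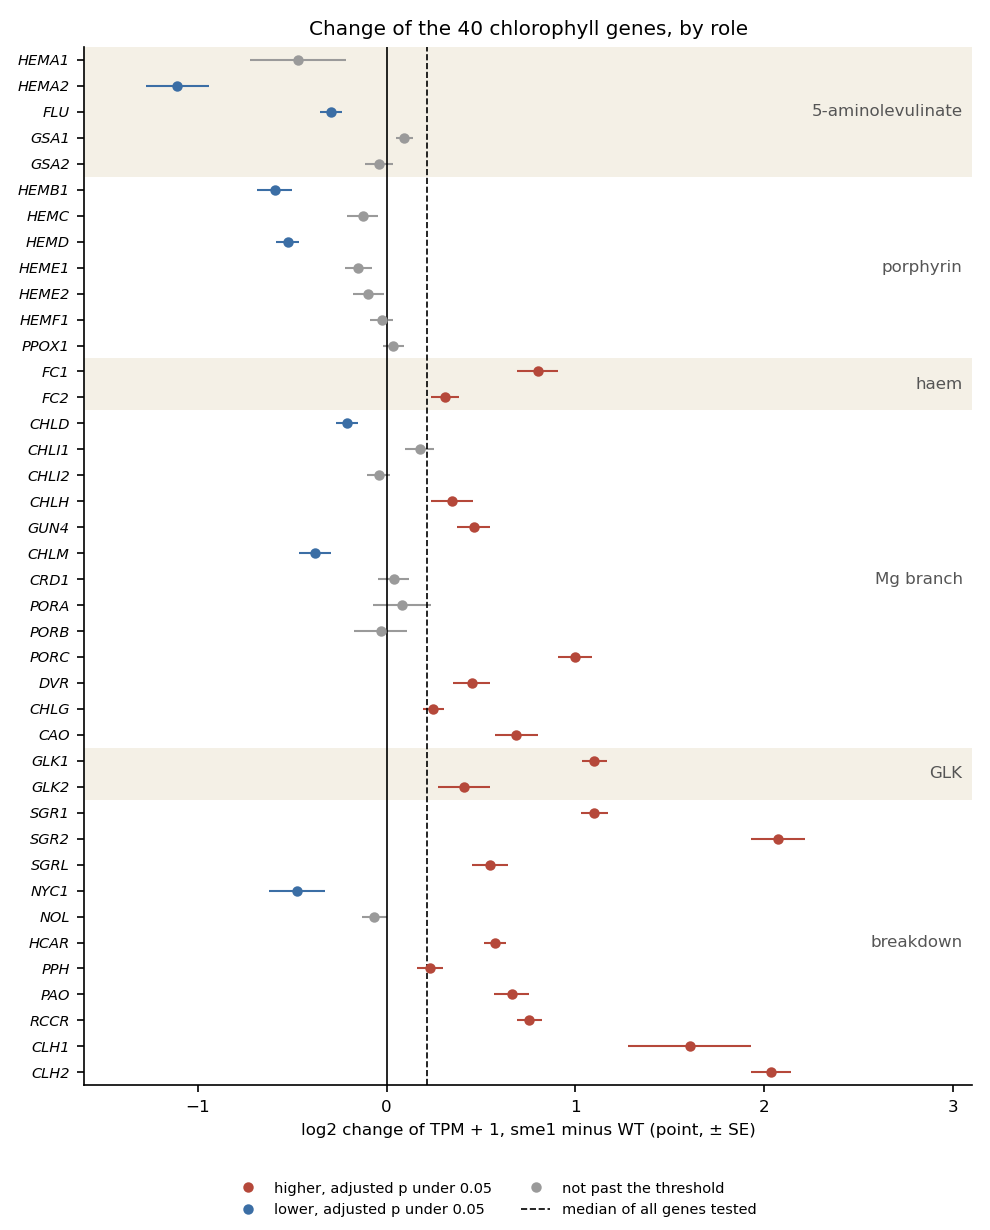
Difference of mean log2(TPM + 1), sme1 minus wild type, for each of the 40 genes (point) with its limma standard error (bar), in the order of the pathway, coloured by the call at an adjusted p under 0.05. The solid line marks no change and the dashed line the median change of all genes tested, 0.22. No gene of the 5-aminolevulinate and porphyrin steps was called higher, while 9 of the 11 breakdown genes were. Among all genes tested 47.3% were called higher.

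SME1 itself had 36.1, 31.6 and 29.7 TPM in sme1 libraries, against 76.9, 73.9 and 75.3 TPM in wild-type libraries, a change of -1.19 (SE 0.08; limma adjusted p = 4.36e-05), so the transcript of the targeted gene matched the labels in all 6 libraries. The 40 chlorophyll genes took 0.814% to 0.930% of all TPM in sme1 libraries and 0.757% to 0.863% in wild-type libraries. CRD1 and PORB alone held 40.4% to 41.2% of that in sme1 and 41.6% to 44.5% in wild type. Markers of leaf tissue were abundant in every library, with summed levels of 38420 to 45690 TPM in sme1 and 42440 to 49000 TPM in wild type. Of these 8 leaf markers 6 (75%) were called lower in sme1 and 1 (12.5%) higher, beside 20% and 47.3% of all genes tested. Markers of root tissue summed to 25.01 to 50.5 TPM in sme1 and 1.29 to 3.71 TPM in wild type, and 6 of the 6 tested were called higher (without sme1 replicate 1 only 3 passed the filter on low genes, and 2 of them were called higher). All 6 averaged under 1 TPM in wild type, so they passed that filter only through their sme1 libraries. The direction of this count was therefore set by the filter. The part of these shifts in tissue markers in the changes of the chlorophyll genes was not tested, and in bulk shoots fewer cells of a type and less RNA per cell cannot be told apart.

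The making of 5-aminolevulinate, which sets the flow into the whole pathway, was represented by 5 genes, of which 2 fell, 3 did not pass the test and none rose (median change -0.29). That is 40% lower and 0% higher, beside 20% and 47.3% of all genes tested. HEMA2 (chromosome 1, 3236908 to 3239554, minus strand), the weakly expressed glutamyl-tRNA reductase, had 7.40, 10.7 and 11.02 TPM in sme1 libraries, against 25.2, 21.9 and 18.7 TPM in wild-type libraries. Every sme1 library lay below every wild-type library, and the change was -1.11 (SE 0.17; limma adjusted p = 0.00114). HEMA1, the main reductase gene of green tissue, averaged 314 ± 105 TPM in sme1 and 423 ± 70.3 TPM in wild type (SD, n = 3 each). Its libraries overlapped and it did not pass the test (change -0.47, SE 0.25; limma adjusted p = 0.142), although leaving out the sme1 library with 416 TPM brought it past the threshold at -0.70 (limma adjusted p = 0.036). FLU, which holds the reductase back in the dark, had 115, 110 and 110 TPM in sme1 libraries, against 145, 137 and 129 TPM in wild-type libraries. All sme1 values were below the lowest wild-type value, a small change of -0.29 (SE 0.06; limma adjusted p = 0.00401) that was called under every scaling. The aminotransferase genes GSA1 and GSA2 averaged 73.2 ± 1.14 and 94.6 ± 6.11 TPM in sme1, against 68.5 ± 1.24 and 97.3 ± 6.79 TPM in wild type (SD, n = 3 each), and neither passed the test. The libraries of GSA1 did not overlap, with every sme1 library above every wild-type library, while those of GSA2 did. Both genes were called lower after median-of-ratios scaling, GSA1 with the opposite sign to that on the deposited scale (-0.14 against 0.10).

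The 7 genes from 5-aminolevulinate to protoporphyrin IX included 2 that fell and 5 that did not pass the test (median change -0.13). That is 28.6% lower and 0% higher, beside 20% and 47.3% of all genes tested. HEMB1 (chromosome 1, 26231620 to 26235043, plus strand) encodes 5-aminolevulinate dehydratase. It had 95.3, 109 and 104 TPM in sme1 libraries, against 175, 150 and 142 TPM in wild-type libraries. The groups did not overlap, and the gene changed by -0.59 (SE 0.09; limma adjusted p = 0.00141). HEMD (chromosome 2, 11287308 to 11290361, minus strand), uroporphyrinogen III synthase, had 32.1, 33.1 and 29.7 TPM in sme1 libraries, against 47.3, 45.0 and 45.2 TPM in wild-type libraries. Its groups were likewise separate (change -0.52, SE 0.06; limma adjusted p = 0.00034). HEMC, porphobilinogen deaminase, averaged 220 ± 23.4 TPM in sme1 and 239 ± 7.56 TPM in wild type (SD, n = 3 each). The uroporphyrinogen decarboxylase genes HEME1 and HEME2 averaged 151 ± 12.2 and 204 ± 22.2 TPM in sme1, against 167 ± 5.69 and 217 ± 5.10 TPM in wild type (SD, n = 3 each). HEMF1, coproporphyrinogen oxidase, which RefSeq lists as LIN2, averaged 122 ± 6.59 TPM in sme1 and 124 ± 5.37 TPM in wild type (SD, n = 3 each). PPOX1, protoporphyrinogen oxidase, averaged 123 ± 5.16 TPM in sme1 and 120 ± 3.68 TPM in wild type (SD, n = 3 each). These 5 genes overlapped between genotypes and lay within 0.15 of 0 on the log2 scale. The scale decided their calls. With median-of-ratios factors 11 of the 12 genes from HEMA to PPOX1 (91.7%) were called lower, with HEMA1 as the exception, beside 33.2% of all genes. After quantile normalization 5 (41.7%) were, beside 36.3% of all genes. On the deposited scale without sme1 replicate 2 the number was 8 (66.7%), beside 18.2% of all genes.

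Both ferrochelatase genes, which lead to haem, rose. FC1, whose product is tied to haem for use outside photosynthesis, had 41.6, 46.7 and 52.4 TPM in sme1 libraries, against 25.1, 29.7 and 24.6 TPM in wild-type libraries. The lowest sme1 library was well above the highest wild-type library, a change of 0.80 (SE 0.11; limma adjusted p = 0.000683) that held under every scaling. FC2, the ferrochelatase gene prominent in green tissue, had 67.9, 71.0 and 63.9 TPM in sme1 libraries, against 49.4, 56.9 and 57.0 TPM in wild-type libraries. Its groups were separate too (change 0.31, SE 0.08; limma adjusted p = 0.01), but the call was lost after median-of-ratios scaling, where the change was 0.08.

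In the magnesium branch 6 of 13 genes rose, 2 fell and 5 did not pass the test (median change 0.18, below that of all genes). These shares, 46.2% higher and 15.4% lower, were near the 47.3% and 20% of all genes tested. After median-of-ratios scaling 2 were called higher and 3 lower, and after quantile normalization 7 and 2. PORC (chromosome 1, 907523 to 909650, plus strand), a light-dependent protochlorophyllide oxidoreductase, had 266, 286 and 263 TPM in sme1 libraries, against 121, 135 and 151 TPM in wild-type libraries. The sme1 libraries were closely grouped and lay far above wild type, a change of 1.00 (SE 0.09; limma adjusted p = 0.00013). The other oxidoreductase genes did not follow it. PORB had 1048, 1410 and 1318 TPM in sme1 libraries, against 1149, 1215 and 1485 TPM in wild-type libraries, and PORA averaged 41.4 ± 6.37 TPM in sme1 and 39.1 ± 6.48 TPM in wild type (SD, n = 3 each). The ranges of both genes overlapped widely, and neither was called under any scaling.

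CAO, chlorophyll a oxygenase, which RefSeq lists as CH1, was the other gene of this branch called higher under every scaling. It averaged 353 ± 24.95 TPM in sme1 and 220 ± 31.2 TPM in wild type (SD, n = 3 each), a change of 0.69 (SE 0.12; limma adjusted p = 0.0018). CHLH, the large subunit of Mg-chelatase, which RefSeq lists as GUN5, averaged 551 ± 73.3 TPM in sme1 and 432 ± 40.1 TPM in wild type, and GUN4, which activates that enzyme, averaged 230 ± 14.6 and 167 ± 16.0 TPM (SD, n = 3 each). DVR, divinyl reductase, averaged 90.3 ± 5.23 TPM in sme1 and 66.1 ± 8.31 TPM in wild type, and CHLG, chlorophyll synthase, averaged 148 ± 8.09 and 125 ± 2.10 TPM (SD, n = 3 each). CHLH, GUN4, DVR and CHLG rose by 0.25 to 0.46 on the deposited scale, and all 4 calls were lost after median-of-ratios scaling. The call of CHLH was also lost without a filter on low genes, without wild-type replicate 1 or without sme1 replicate 2.

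Among the falls, CHLM, Mg-protoporphyrin IX methyltransferase, had 290, 358 and 318 TPM in sme1 libraries, against 402, 415 and 437 TPM in wild-type libraries. All sme1 libraries lay below all wild-type libraries, and the change of -0.38 (SE 0.09; limma adjusted p = 0.00692) was called under every scaling. CHLD, a subunit of Mg-chelatase that RefSeq lists as ALB1, averaged 134 ± 5.19 TPM in sme1 and 155 ± 7.12 TPM in wild type (SD, n = 3 each; change -0.21, SE 0.06; limma adjusted p = 0.0156), a call lost without wild-type replicate 2 or without sme1 replicate 3. The subunits of Mg-chelatase thus differed in their calls, with CHLH higher, CHLD lower and neither CHLI gene past the threshold on the deposited scale. CHLI1 had 377, 448 and 386 TPM in sme1 libraries, against 356, 350 and 362 TPM in wild-type libraries, and CHLI2 had 80.2, 89.6 and 79.4 TPM in sme1 libraries, against 83.7, 84.6 and 88.0 TPM in wild-type libraries. The libraries of CHLI1 did not overlap and those of CHLI2 did. CRD1, the cyclase subunit with the highest level of all 40 genes, averaged 2234 ± 115 TPM in sme1 and 2180 ± 180 TPM in wild type (SD, n = 3 each) and was not past the threshold, although quantile normalization called it higher (0.37).

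The GOLDEN2-LIKE factors were both called higher. GLK1 (chromosome 2, 8855302 to 8857758, plus strand), which RefSeq lists as GPRI1, had 136, 144 and 124 TPM in sme1 libraries, against 59.8, 63.1 and 63.7 TPM in wild-type libraries. Its lowest sme1 library had more than any wild-type library by a wide margin, and the change of 1.10 (SE 0.07; limma adjusted p = 3.58e-05) held under every scaling. GLK2 had 152, 139 and 132 TPM in sme1 libraries, against 104, 129 and 88.3 TPM in wild-type libraries. Its groups were separated narrowly (change 0.41, SE 0.14; limma adjusted p = 0.0328), and the call was lost under both other scalings, without a filter on low genes and in 5 of the 6 fits that leave out 1 library.

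**Figure D2:**
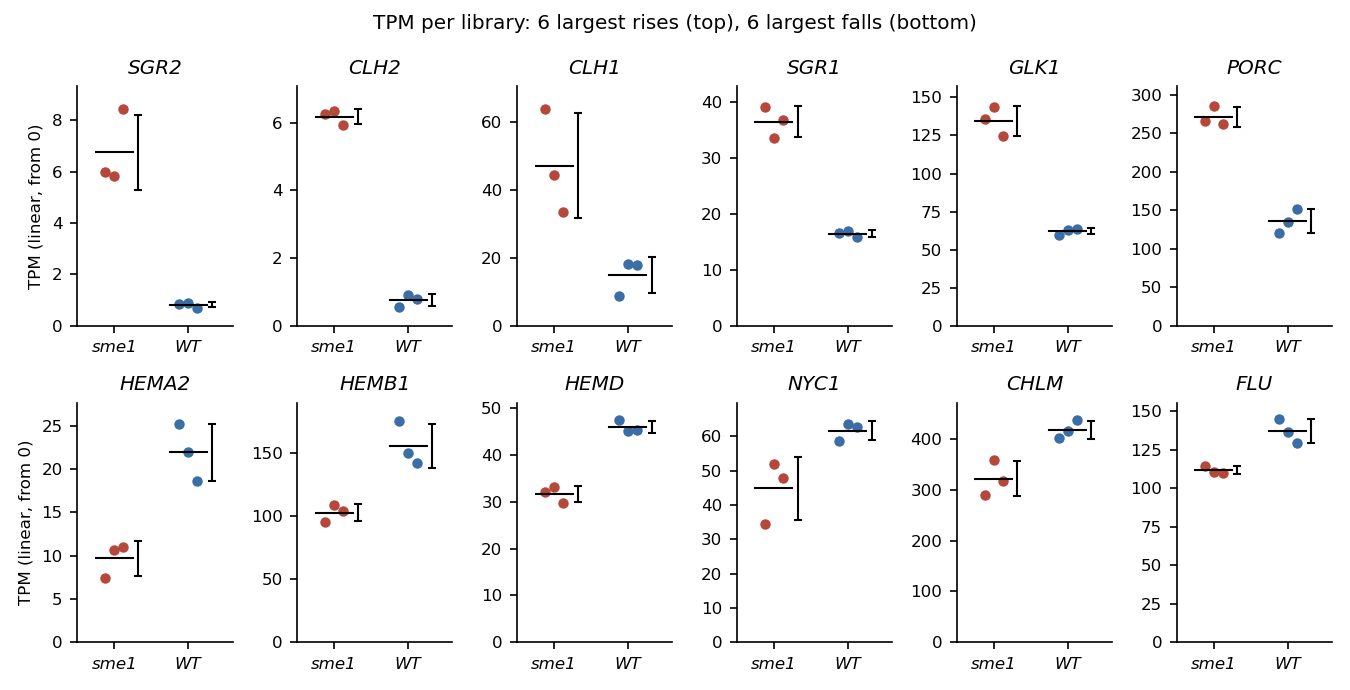
TPM in each library (points), with the mean (line) and SD (bar) of 3 libraries, sme1 left of wild type, for the 6 called genes with the largest rises (top row) and the 6 with the largest falls (bottom row), each on a linear axis from 0. The libraries of the genotypes do not overlap for any of the 12 genes, and the sme1 libraries of CLH1 lie between 33.4 and 63.9 TPM.

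Chlorophyll breakdown held the largest changes, and of its 11 genes 9 rose, 1 fell and 1, NOL, did not pass the test (median change 0.66, that is 0.45 above the median gene). These are 81.8% higher and 9.09% lower, beside 47.3% and 20% of all genes tested. After median-of-ratios scaling 8 (72.7%) were called higher and 2 (18.2%) lower, beside 33.9% and 33.2% of all genes. After quantile normalization 9 (81.8%) and 2 (18.2%) were, beside 30.4% and 36.3% of all genes. Under all 3 scalings 8 were called higher, a count that has no share of all genes beside it. SGR2 and CLH2 averaged under 1 TPM in wild type, so they passed the filter on low genes through their sme1 libraries. At a mean of at least 5 TPM 9 breakdown genes were tested, with 7 (77.8%) called higher and 1 (11.1%) lower, beside 45.4% and 23.4% of all genes. The STAY-GREEN genes encode Mg-dechelatases or their relatives. SGR2 (AT4G11910; chromosome 4, 7156150 to 7158047, plus strand) had 5.98, 5.83 and 8.41 TPM in sme1 libraries, against 0.849, 0.905 and 0.708 TPM in wild-type libraries. The sme1 mean was 8.22 times that of wild type, and the change on the log2 scale, which understates that of low genes, was 2.07 (SE 0.14; limma adjusted p = 5.29e-05). SGR1, which RefSeq lists as NYE1, had 39.1, 33.6 and 36.9 TPM in sme1 libraries, against 16.6, 17.0 and 15.9 TPM in wild-type libraries. Its groups were far apart and each was tight (change 1.10, SE 0.07; limma adjusted p = 4.24e-05). SGRL (AT1G44000), a relative expressed in green leaves, averaged 154 ± 13.9 TPM in sme1 and 106 ± 10.6 TPM in wild type (SD, n = 3 each; change 0.55, SE 0.10; limma adjusted p = 0.00234).

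The chlorophyllase genes CLH1 and CLH2 encode enzymes that cut the phytol tail from chlorophyll in vitro. CLH2 (chromosome 5, 17630426 to 17632338, plus strand) had 6.26, 6.33 and 5.93 TPM in sme1 libraries, against 0.554, 0.901 and 0.809 TPM in wild-type libraries, a ratio of means of 8.18 (change 2.04, SE 0.11; limma adjusted p = 2.52e-05). CLH1 had 63.9, 44.3 and 33.4 TPM in sme1 libraries, against 8.83, 18.2 and 18.1 TPM in wild-type libraries. Its groups did not overlap, although its values spread more than those of the other risers (change 1.61, SE 0.33; limma adjusted p = 0.00439). PPH, pheophytinase, which removes phytol in senescence, averaged 52.7 ± 3.23 TPM in sme1 and 44.7 ± 2.34 TPM in wild type (SD, n = 3 each). Its change of 0.23 (SE 0.07; limma adjusted p = 0.021) became -0.00 after median-of-ratios scaling, and its call was also lost without wild-type replicate 3, without sme1 replicate 1 or without sme1 replicate 3.

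The later steps rose under every scaling. PAO, pheophorbide a oxygenase, which opens the ring and which RefSeq lists as ACD1, averaged 65.2 ± 6.86 TPM in sme1 and 40.7 ± 3.16 TPM in wild type (SD, n = 3 each; change 0.66, SE 0.09; limma adjusted p = 0.000805). RCCR, red chlorophyll catabolite reductase, listed as ACD2, averaged 75.4 ± 4.70 TPM in sme1 and 44.2 ± 1.88 TPM in wild type (SD, n = 3 each; change 0.76, SE 0.07; limma adjusted p = 0.000108). The reduction of chlorophyll b divided: HCAR, which completes it, rose, while NYC1, which begins it, fell. HCAR averaged 11.5 ± 0.0976 TPM in sme1 and 7.36 ± 0.223 TPM in wild type (SD, n = 3 each; change 0.58, SE 0.06; limma adjusted p = 0.000211). NYC1 had 34.4, 52.1 and 48.0 TPM in sme1 libraries, against 58.6, 63.7 and 62.8 TPM in wild-type libraries. The sme1 libraries were all lower but uneven (change -0.47, SE 0.15; limma adjusted p = 0.0266), and the call was lost without wild-type replicate 2 or without wild-type replicate 3. NOL, the partner of NYC1, had 29.1, 30.3 and 28.5 TPM in sme1 libraries, against 33.1, 30.2 and 28.8 TPM in wild-type libraries. Its ranges overlapped and it was not past the threshold on the deposited scale (change -0.06), but it was called lower under both other scalings.

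Summed over genes, the 11 breakdown transcripts came to 535, 538 and 517 TPM in sme1 libraries, against 347, 383 and 374 TPM in wild-type libraries, a ratio of means of 1.44 (1.22 after median-of-ratios scaling). The 29 genes of synthesis and its regulators came to 7610, 8766 and 7825 TPM in sme1 libraries, against 7224, 7700 and 8257 TPM in wild-type libraries, a ratio of 1.04 that was 0.886 after median-of-ratios scaling. The breakdown sum was higher in every sme1 library than in any wild-type library, while the synthesis sums overlapped. Breakdown genes thus took 5.78% to 6.57% of the TPM of the 40 genes in sme1 libraries and 4.33% to 4.73% in wild-type libraries. Within synthesis, the sum from HEMB1 to PPOX1 was lower in each sme1 library (893, 1031 and 936 TPM) than in each wild-type library (1095, 1049 and 1061 TPM).

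**Figure D3:**
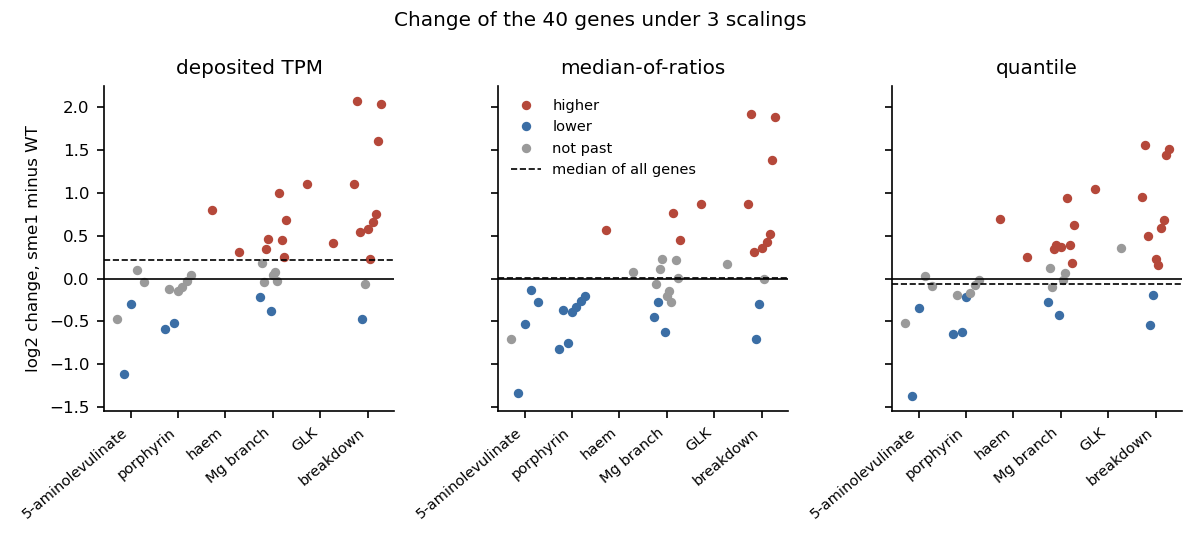
Log2 change, sme1 minus wild type, of each of the 40 genes by role on the deposited TPM scale, with median-of-ratios factors and with quantile normalization, coloured by the call; the dashed line is the median of all genes tested (0.22, 0.00 and -0.06). The breakdown genes keep 8 calls of higher on every scale, while the calls of lower among the 5-aminolevulinate and porphyrin genes number 4, 11 and 5. Of all genes 47.3%, 33.9% and 30.4% were called higher on these scales and 20%, 33.2% and 36.3% lower.

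Several steps are encoded by a pair of related genes, and the level of one over the other is the same whatever single factor a library is multiplied by, apart from the added 1. Quantile normalization moves each gene by its own amount and can change it. For each of 10 pairs the log2 ratio of TPM + 1 was set between genotypes with a two-sided exact permutation test on the means, in which 3 against 3 libraries cannot give a p below 0.1. In 6 of the 10 pairs the genotypes did not overlap, and each of these 6 had the exact permutation p of 0.1. Adjusted over the 10 pairs, the lowest permutation p was 0.167, so no pair passed 0.05. Ratios of other gene pairs were not examined, and of single genes 51% were higher and 22.4% lower without overlap. With a pseudocount of 0.1, or with none, 8 of the 10 did not overlap, since HEMA2 over HEMA1 and CLH2 over CLH1 then separated as well. PORC over PORB was -1.98, -2.30 and -2.32 in sme1 libraries, against -3.24, -3.16 and -3.29 in wild-type libraries. SGR2 over SGR1 was -2.52, -2.34 and -2.01 in sme1 libraries, against -3.25, -3.24 and -3.30 in wild-type libraries. Both ratios were closer to parity in sme1, although PORB and SGR1 remained the more abundant member. The difference was 1.03 for PORC over PORB (1.03 with no pseudocount and 0.87 after quantile normalization). For SGR2 over SGR1 it was 0.97, but SGR2 was below 1 TPM in wild type and the added 1 compresses its ratio, so it was 1.88 with no pseudocount and 0.61 after quantile normalization. FC1 over FC2 was also higher in sme1, by 0.49, and NOL over NYC1 by 0.41. GLK2 over GLK1 was 0.16, -0.04 and 0.09 in sme1 libraries, against 0.79, 1.02 and 0.47 in wild-type libraries. The factors were near equal in sme1, whereas GLK2 exceeded GLK1 in every wild-type library. CHLI2 over CHLI1 was lower in sme1 by a small 0.22. CLH2 over CLH1 overlapped between genotypes with the added 1 (difference 0.43). With no pseudocount it was -3.35, -2.81 and -2.50 in sme1 libraries, against -4.00, -4.33 and -4.48 in wild-type libraries. All sme1 values were then higher, by 1.39 on average, while after quantile normalization the difference was 0.07. HEMA2 over HEMA1 also overlapped with the added 1 (difference -0.64) and was lower in every sme1 library than in any wild-type library with none (difference -0.72). The ratios of GSA2 to GSA1 and HEME2 to HEME1 overlapped at every pseudocount, with differences of -0.14 and 0.05. Related genes share sequence, and the ratios rest on how reads common to both were apportioned in the deposited TPM.

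**Figure D4:**
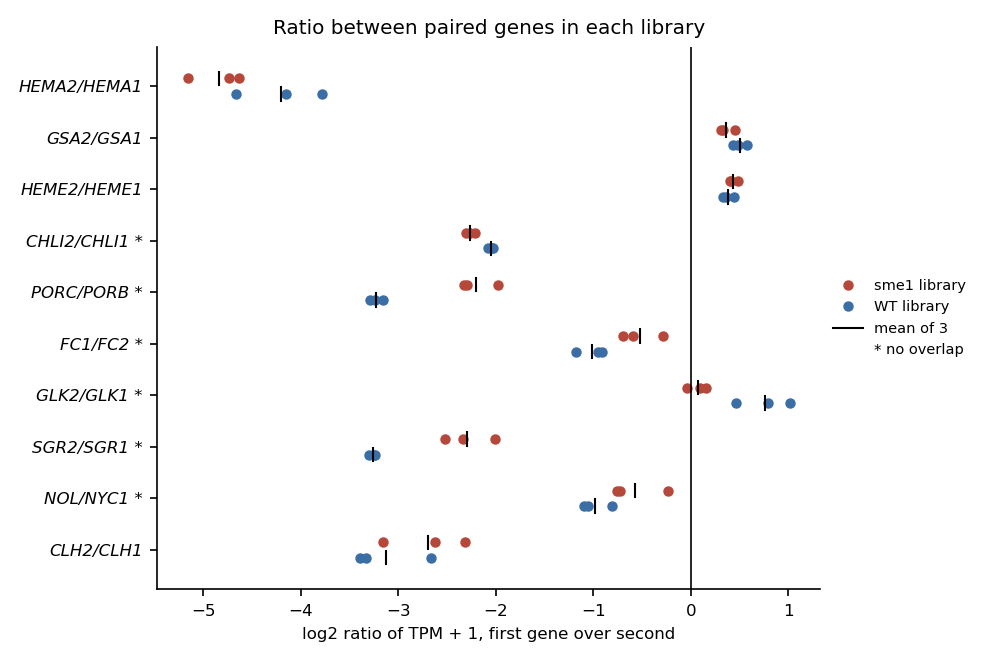
Log2 ratio of TPM + 1 of the first gene over the second in each library, with the sme1 libraries drawn above the wild-type libraries and the mean of 3 as a line; an asterisk marks the 6 pairs whose libraries do not overlap with the added 1. The line at 0 marks equal levels, near which GLK2 over GLK1 lies in sme1, between -0.04 and 0.16.

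The upstream sequences of 4 genes are shown because they hold motifs that are often discussed for light and chlorophyll genes. SGR2, CAO and GUN4 were called higher and PORB was not past the threshold, while no gene called lower is shown. These calls are on the deposited scale, and that of GUN4 was lost after median-of-ratios scaling. Searches were made on both strands of the 250 bases before and 50 bases after the gene start of RefSeq TAIR10.1, for the G-box (CACGTG), a motif bound by GLK factors (CCAATC), the core of the evening element (AATATCT) and the I-box (GATAAG); none of these strings contains another. Printed are the 250 bases before the start, 5′ to 3′ on the strand of the gene, with the motifs in capitals.
SGR2, higher in sme1, chr4:7155900-7156149, plus strand: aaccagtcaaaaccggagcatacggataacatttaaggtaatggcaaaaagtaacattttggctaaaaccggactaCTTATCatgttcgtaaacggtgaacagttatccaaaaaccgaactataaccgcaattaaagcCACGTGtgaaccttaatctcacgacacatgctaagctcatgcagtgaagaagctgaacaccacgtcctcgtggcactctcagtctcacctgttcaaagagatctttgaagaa
CAO, higher in sme1, chr1:16851272-16851521, minus strand: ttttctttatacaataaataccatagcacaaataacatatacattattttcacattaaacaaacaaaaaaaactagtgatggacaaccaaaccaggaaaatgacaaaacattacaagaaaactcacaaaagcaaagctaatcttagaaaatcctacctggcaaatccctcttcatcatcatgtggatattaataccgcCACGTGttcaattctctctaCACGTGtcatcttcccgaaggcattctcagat
GUN4, higher in sme1, chr3:21949797-21950046, minus strand: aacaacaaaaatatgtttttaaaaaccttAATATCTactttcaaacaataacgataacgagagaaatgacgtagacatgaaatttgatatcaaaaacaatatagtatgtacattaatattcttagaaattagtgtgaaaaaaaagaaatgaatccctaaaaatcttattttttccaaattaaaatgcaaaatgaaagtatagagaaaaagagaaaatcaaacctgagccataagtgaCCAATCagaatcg
PORB, not past the threshold, chr4:13725296-13725545, plus strand: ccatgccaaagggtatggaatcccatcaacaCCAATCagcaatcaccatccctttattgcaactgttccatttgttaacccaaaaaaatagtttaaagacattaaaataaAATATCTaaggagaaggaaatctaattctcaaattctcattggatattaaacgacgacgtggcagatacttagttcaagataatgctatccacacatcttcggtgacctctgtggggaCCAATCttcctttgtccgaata
The G-box was found in 7 of the 40 windows (17.5%), against 7.7% of the windows of 27443 genes, and of the 7 genes 3 were called higher, 2 lower and 2 not past the threshold. CCAATC was found in 7 windows (17.5%, against 12.3%), those of GSA2, PPOX1, CHLH, GUN4, PORB, PORC and SGRL, of which 4 were called higher and 3 not past the threshold. After median-of-ratios scaling GSA2 and PPOX1 were called lower, and CHLH and GUN4 lost their calls. The evening element core was in 6 windows (15%, against 11.5%), with 2 genes called higher, 1 lower and 3 not past the threshold. The I-box was in 8 (20%, against 14.6%), with 4 called higher and 4 not past the threshold. Beside these counts, 47.3% of all genes tested were called higher and 20% lower. A match describes the letters of the window and says nothing of what binds there, and both PORB, which did not pass the test, and PORC, which rose, hold CCAATC.

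Transcripts of the chlorophyll genes were tested one by one, over all 39381 transcripts that averaged 1 TPM or more. Of 110 tested transcripts of these genes 34 (30.9%) were called higher and 11 (10%) lower, beside 29.1% and 14.5% of all transcripts. The annotation holds 67 transcripts of these genes that were assembled with scallop rather than taken from Araport11. Both Araport11 transcripts of PORC rose, AT1G03630.1 to 146 ± 14.4 TPM in sme1 against 78.0 ± 13.1 TPM in wild type and AT1G03630.2 to 120 ± 2.497 TPM against 56.3 ± 4.01 TPM (SD, n = 3 each). In CHLM the annotated transcript AT4G25080.1 had 0.000149, 0.0019 and 3.09 TPM in sme1 libraries, against 11.2, 22.1 and 14.0 TPM in wild-type libraries. It took 0.324% of CHLM in sme1 and 3.78% in wild type, while AT4G25080.2 took 22.8% in sme1 and 15.9% in wild type.

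Whether the make-up of a gene differed was tested with limma diffSplice, which called 8 of 30 chlorophyll genes with more than 1 tested transcript (26.7%), beside 23.2% of all genes tested in this way. They were CHLM (adjusted p = 6.38e-07), PPOX1 (0.0105), CRD1 (0.0126), HEME1 (0.0146), HEMC (0.0163), HEMB1 (0.0174), NOL (0.0268) and HEMA1 (0.0431). Without wild-type replicate 3 there were 4 such genes, and without sme1 replicates 1, 2 or 3 there were 5, 3 and 4. In a second test, of each transcript against the rest of its gene, 1 of these genes, HEMA1, was called (limma adjusted p = 0.0363), beside 3.9% of all genes. Its scallop transcripts took 3.79% ± 0.429 of HEMA1 in sme1 and 1.46% ± 0.181 in wild type (SD, n = 3 each), and 1 of the 2, TCONS_00005436, rose (limma adjusted p = 0.0297) while the annotated transcript, AT1G58290.1, was at 302 ± 99.8 TPM in sme1 and 416 ± 68.6 TPM in wild type and did not pass the test. HEME1 showed a shift between annotated transcripts, with AT3G14930.1 at 12.9% of the gene in sme1 and 22.2% in wild type and AT3G14930.3 at 50.4% and 40.1%.

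Since SmE is part of the spliceosome, retained introns were examined in each chlorophyll gene. A retained share is the TPM of transcripts that keep an intron over the TPM of these and of the transcripts that splice out exactly that intron, so it rests on apportioned reads and not on reads across junctions. There were 41 such introns in 22 chlorophyll genes. With limma on log2((R + 0.1)/(S + 0.1)), where R is kept and S spliced, none passed the threshold, beside 3.57% of all introns called higher and 0.824% called lower. At an unadjusted p under 0.05 there were 10 introns in 8 genes, all with a higher share in sme1, beside 25.5% of all introns in either direction and 19.6% higher. With the variance modelled on R + S 4 introns were called, and with a pseudocount of 1 in place of 0.1 there were 5, all higher. The same settings called 6.48% and 12.5% of all introns higher and 1.53% and 5.03% lower. The share was higher in sme1 for 28 of the 41 introns (68.3%, against 64.7% of all introns) and separate between genotypes for 13, all higher (beside 24.1% of all introns higher and 8.2% lower), so the chlorophyll genes lay close to the transcriptome in this respect.

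Sequences are shown for 3 coding introns, chosen after their values were seen as the coding introns with the smallest p, apart from the longer intron 1 of HEMC. Positions are those of the deposited annotation, whose introns begin and end with splice-site letters on TAIR10.1; each is given 5′ to 3′ on the strand of the gene, with the first 6 bases at the 5′ splice site and the last 2 at the 3′ splice site in capitals.
NYC1 intron 8 of 9, chr4:7684893-7684968, minus strand, 76 bases: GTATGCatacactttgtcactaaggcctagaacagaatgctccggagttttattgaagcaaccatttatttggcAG
NOL intron 12 of 12, chr5:1437034-1437146, plus strand, 113 bases: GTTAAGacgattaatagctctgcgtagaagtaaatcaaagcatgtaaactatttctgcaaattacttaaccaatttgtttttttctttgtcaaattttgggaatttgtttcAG
PORB intron 3 of 3, chr4:13726859-13726951, plus strand, 93 bases: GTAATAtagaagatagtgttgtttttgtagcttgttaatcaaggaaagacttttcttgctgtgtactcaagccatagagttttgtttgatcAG
The NYC1 intron was retained at 6.32%, 4.41% and 3.30% in sme1 libraries, against 1.67%, 2.17% and 1.77% in wild-type libraries (log2 ratio change 1.27, SE 0.31; limma adjusted p = 0.0685). Its length is not a multiple of 3 and it holds no stop codon in frame. The NOL intron was retained at 7.86%, 6.59% and 7.39% in sme1 libraries, against 3.81%, 4.57% and 3.26% in wild-type libraries (change 0.92, SE 0.24; limma adjusted p = 0.0801). A stop codon in frame begins at its base 25. The PORB intron was retained at 4.36%, 3.82% and 3.74% in sme1 libraries, against 2.52%, 2.43% and 1.90% in wild-type libraries (change 0.83, SE 0.24; limma adjusted p = 0.0954). Its length is a multiple of 3, and a stop codon in frame begins at its base 7. In all 3 introns every sme1 library exceeded every wild-type library, and in each the retaining transcripts were scallop assemblies and a small share of the gene. The NYC1 and PORB introns were among those called with the variance modelled on R + S or with a pseudocount of 1, and the NOL intron was called in neither.

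Outside coding sequence, intron 2 of CHLM, in the 3′ UTR, was kept at 34.4%, 36.5% and 36.2% in sme1 libraries, against 26.4%, 24.4% and 26.5% in wild-type libraries (change 0.68, SE 0.21; limma adjusted p = 0.116). Intron 1 of HEMB1, in the 5′ UTR, was kept at 67.1%, 76.4% and 70.7% in sme1 libraries, against 55.7%, 56.7% and 48.6% in wild-type libraries (change 1.10, SE 0.28; limma adjusted p = 0.0744). Here the kept form exceeded the spliced form in 5 of the 6 libraries, and the share is of 2 minor transcripts that together took less of HEMB1 than AT1G69740.1, which was at 86.6% in sme1 and 87.8% in wild type. Of 5 alternative 5′ splice sites and 8 alternative 3′ splice sites in chlorophyll genes, none passed the threshold of limma and none had an unadjusted p under 0.05, beside 17.3% of all 5′ sites and 14% of all 3′ sites. Of all such sites 0.45% on the 5′ side were called higher and 0.45% lower, and 0.201% and 0.221% on the 3′ side.

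**Figure D5:**
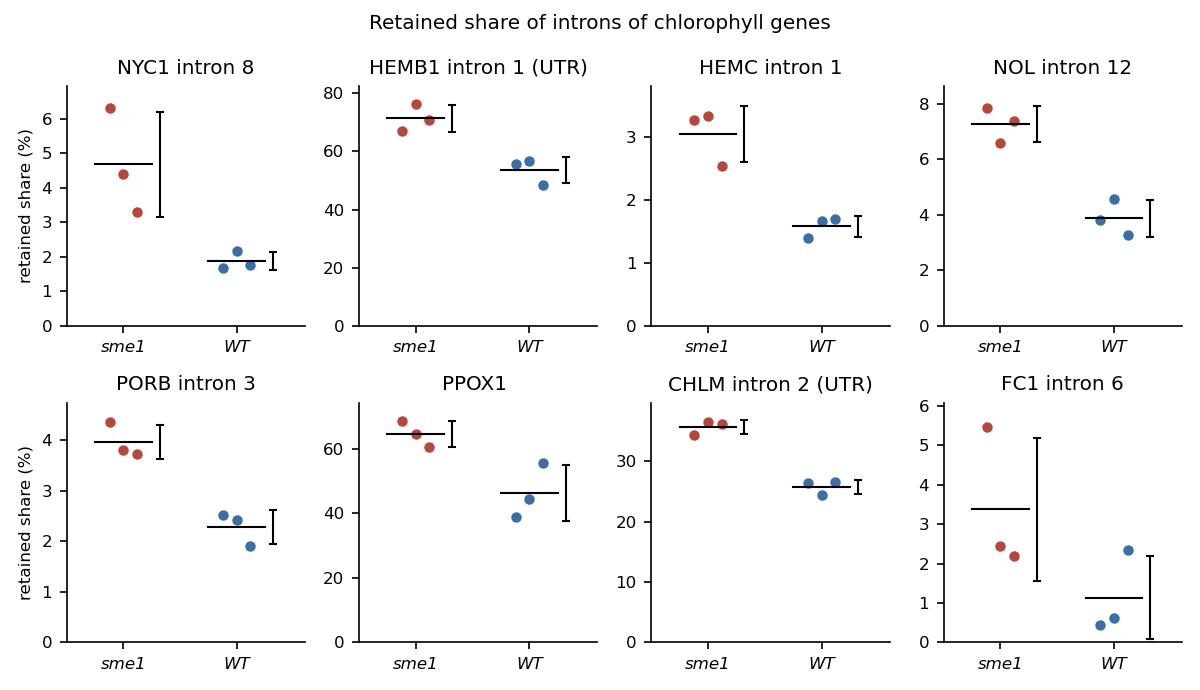
Retained share in percent per library (points), with the mean (line) and SD (bar) of 3 libraries, sme1 left of wild type, for the 8 chlorophyll genes with an intron at an unadjusted p under 0.05, 1 intron per gene, on linear axes from 0. The sme1 libraries lie above the wild-type libraries in 7 panels and overlap with them for FC1; none of the 8 passed the adjusted threshold.

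Further genes around the pathway came from lists written with earlier results of these data known. Of 23 other tetrapyrrole genes 21 were tested, and 9 were called higher and 5 lower, against 3 and 10 after median-of-ratios scaling and 6 and 7 after quantile normalization. On the deposited scale these are 42.9% and 23.8%, near the 47.3% and 20% of all genes tested. GUN1, a plastid signalling protein that binds tetrapyrroles, averaged 121 ± 5.35 TPM in sme1 and 70.8 ± 1.63 TPM in wild type (limma adjusted p = 5.33e-05). HEMF2, a second coproporphyrinogen oxidase gene, averaged 28.04 ± 0.361 TPM in sme1 and 44.9 ± 1.93 TPM in wild type (limma adjusted p = 9.14e-05). AT5G63290, which RefSeq describes as a radical SAM protein, averaged 3.41 ± 0.225 TPM in sme1 and 1.55 ± 0.0717 TPM in wild type (limma adjusted p = 0.000311). AT5G06130 averaged 67.6 ± 2.29 TPM in sme1 and 50.3 ± 1.05 TPM in wild type (limma adjusted p = 0.000424; SD, n = 3 each in all of these). These 4 genes, 3 higher and 1 lower, were called under every scaling.

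Of 8 further genes tied to chlorophyll breakdown or to its products, 6 were called higher and 1 lower (median change 1.13). These are 75% and 12.5%, beside 47.3% and 20% of all genes tested. After median-of-ratios scaling 5 were called higher and 1 lower, beside 33.9% and 33.2% of all genes. TIC55-II, which hydroxylates the colourless catabolites, averaged 63.0 ± 2.98 TPM in sme1 and 23.7 ± 2.47 TPM in wild type (limma adjusted p = 3.9e-05). CYP89A9, which leads to dioxobilin-type catabolites, averaged 21.5 ± 4.16 TPM in sme1 and 5.81 ± 1.36 TPM in wild type (limma adjusted p = 0.00024). PES2, a phytyl ester synthase that stores the freed phytol, averaged 10.6 ± 0.323 TPM in sme1 and 3.25 ± 0.237 TPM in wild type (limma adjusted p = 2.44e-05). VTE5, the phytol kinase, was the gene called lower, at 56.5 ± 3.48 TPM in sme1 and 93.7 ± 6.95 TPM in wild type (limma adjusted p = 0.00023; SD, n = 3 each in all of these).

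Among 19 transcription factors and hormone regulators of these genes, 11 were called higher and 5 lower, with 8 lower after median-of-ratios scaling. On the deposited scale these are 57.9% and 26.3%, beside 47.3% and 20% of all genes tested. The 5 called lower were CGA1, GNC, FHY3, EIN3 and ANAC055, each under every scaling. The genes with the smallest adjusted p, described next, were all called higher. ABF2 and ABF3, abscisic acid-responsive factors, averaged 44.7 ± 6.43 and 131 ± 17.6 TPM in sme1, against 10.01 ± 0.0574 and 46.8 ± 3.72 TPM in wild type (limma adjusted p = 2.46e-05 and 6.84e-05). ANAC046, a factor known to promote chlorophyll breakdown, averaged 5.58 ± 0.546 TPM in sme1 and 1.98 ± 0.102 TPM in wild type (limma adjusted p = 8.79e-05). PIF3, a phytochrome-interacting factor that represses greening in the dark, averaged 25.5 ± 2.31 TPM in sme1 and 10.14 ± 0.583 TPM in wild type (limma adjusted p = 4.58e-05; SD, n = 3 each in all of these).

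Senescence markers did not move together. Of 10, 8 were tested, with 3 called higher (5 without sme1 replicate 1) and 2 lower. The summed level of the 10 was 740 to 975 TPM in sme1 libraries and 1428 to 2130 TPM in wild-type libraries. SEN1 was the largest term of the wild-type sum, so the lower sum in sme1 does not describe the markers as a set. With all libraries 37.5% of those tested were called higher and 25% lower, beside 47.3% and 20% of all genes tested. SAG13 averaged 67.8 ± 19.5 TPM in sme1 and 0.558 ± 0.264 TPM in wild type, and WRKY6 averaged 13.3 ± 0.972 and 3.06 ± 0.211 TPM (limma adjusted p = 1.84e-05 and 1.97e-05). Of these genes SAG13 passed the filter on low genes only through its sme1 libraries. SEN1, a gene also induced by darkness, averaged 29.2 ± 7.13 TPM in sme1 and 956 ± 212 TPM in wild type, and SEN4 averaged 49.8 ± 6.07 and 222 ± 44.1 TPM (limma adjusted p = 1.94e-05 and 6.01e-05; SD, n = 3 each). SAG12, a marker of advanced senescence named after its values were seen, was below the filter, with 0.165, 2.59 and 0.393 TPM in sme1 libraries and listed at 0 in all wild-type libraries.

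Leaf, root and floral markers were counted beside these groups. The leaf markers LHCA1, LHCA3, PSBO1 and RCA were called lower on the deposited scale and after median-of-ratios scaling, but after quantile normalization LHCA1 alone of these 4 was called lower and PSBO1 was called higher. LHCA1, an antenna protein of photosystem I, averaged 5749 ± 358 TPM in sme1 and 7923 ± 496 TPM in wild type (SD, n = 3 each; limma adjusted p = 0.00247). IRT1, an iron transporter of the root epidermis, averaged 18.03 ± 5.98 TPM in sme1 and 0.645 ± 0.381 TPM in wild type (SD, n = 3 each; limma adjusted p = 6.7e-05). It entered the test only through its sme1 libraries, so the direction of its call was set by the filter. Of 4 floral markers 2 were tested and 1, SEP3, was called higher, with summed levels of 5.13 to 6.45 TPM in sme1 libraries and 2.34 to 4.29 TPM in wild-type libraries. SEP3 averaged under 1 TPM in wild type and entered the test through its sme1 libraries. Many chlorophyll genes follow the time of day, and 6 clock genes were listed after the data had been seen. CCA1, LHY and PRR9, which peak in the morning, were called higher. TOC1 and LUX, which peak in the evening, were called lower, and GI did not pass the test. These shares, 50% higher and 33.3% lower, stand beside 47.3% and 20% of all genes tested. CCA1 averaged 82.8 ± 8.02 TPM in sme1 and 41.3 ± 5.02 TPM in wild type, and LUX averaged 6.62 ± 0.910 and 15.6 ± 3.82 TPM (SD, n = 3 each; limma adjusted p = 0.000278 and 0.00129). The part of a shift in clock time or in tissue make-up in the changes of the chlorophyll genes was not tested.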

How the data were processed

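Shoot RNA of 3 sme1 and 3 wild-type Col-0 libraries had been sequenced from a stranded mRNA kit as 150 bp paired ends, per the labels' protocols. The authors deposited TPM per gene and per transcript and the transcript annotation, and STAR 2.5.2b and kallisto 0.43.0 appear, with no role given, in the submitters' processing notes. Every library sums to 1000000 TPM, so depth is unknown. The annotation names no build. All 252 introns of the chlorophyll genes carry GT or GC at the 5′ end and AG at the 3′ end on TAIR10.1, the build of the RefSeq sequences, positions and symbols used here.

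Groups came from the sample titles, and all 6 libraries entered each fit with no covariate. Limma 3.58.1 in R 4.3.3 was run on log2(TPM + 1) of genes or transcripts averaging 1 TPM or more, with p-values adjusted after Benjamini and Hochberg over all features tested and a threshold of 0.05. Transcript usage was tested with diffSplice. Introns were kept where R + S averaged 2 TPM or more and the share averaged 0.02 to 0.98, and their ratio had a pseudocount of 0.1. Alternatives were median-of-ratios and quantile scaling, other filters and pseudocounts, a replicate block and leaving out each library; the transcript share test, the variance trend on R + S, the pair ratios with no pseudocount or after quantile normalization and the clock genes were added after seeing the data. The procedures were tested on simulated data. Members and lists were chosen with earlier results of these data known. Named with per-library values were the 6 largest rises and 6 largest falls among called genes, GLK1, GLK2 and both genes of each pair whose ratios do not overlap, and of each other list up to 4 genes with the smallest adjusted p; usage named up to 8 genes. The regulators called lower were named without values. No intron qualified for naming, so those described were chosen after their values were seen. Figures were drawn with matplotlib 3.10.9 in Python 3.11.15.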

Additional observations from a re-analysis of the deposited data

How the results depend on the processing

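After median-of-ratios scaling 6674 genes of the transcriptome were called lower, and after quantile normalization 6116 were called higher and 7293 lower. With median-of-ratios scaling the chlorophyll genes had 12 called higher and 16 lower, the magnesium branch 2 higher, the genes from HEMA to PPOX1 11 lower and breakdown 2 lower (also 2 after quantile normalization); other tetrapyrrole genes had 3 higher and 10 lower, regulators 8 lower and leaf markers 0 higher. The log2 ratio of summed TPM became -0.18 for synthesis and 0.29 for breakdown. Leaf markers called higher numbered 2 after quantile normalization and 0 without a filter, and those called lower 3 in both. At a mean of at least 5 TPM 1 root marker was left to test, and it was called higher (1 of 1), and no floral marker was left (0 called), so these counts follow from the filter. Floral markers called higher numbered 0 of 2 after quantile normalization and 2 of 4 without a filter. The transcript share test called 1 gene, and retained introns numbered 5 with a pseudocount of 1 and 4 with the variance modelled on R + S. The cause of these moves was not tested.

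Some genes changed sign, among them PPH, which was called on the deposited scale: with median-of-ratios scaling GSA1 (-0.14), PPOX1 (-0.20), CHLI1 (-0.062), CRD1 (-0.20), PORA (-0.15) and PPH (-0.001); with quantile normalization PPOX1 (-0.015), PORA (-0.018) and PORB (0.068). Leaving out 1 library at a time did so for GSA2, HEMF1, CRD1, PORA and PORB, whose ranges were -0.092 to 0.015, -0.066 to 0.01, -0.023 to 0.096, -0.053 to 0.208 and -0.117 to 0.096 in that order.

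Without 1 library, the chlorophyll genes called higher numbered 17 to 19 and those called lower 5 to 11; from HEMA to PPOX1 4 to 8 were lower, in the magnesium branch 5 to 7 higher and 1 to 2 lower, and in breakdown 8 to 9 higher and 0 to 1 lower. Leaf markers called higher numbered 0 to 1, root markers 2 to 6, floral markers 0 to 2 and senescence markers 3 to 5, genes with changed usage 3 to 8 and retained introns 0. The log2 ratio of summed TPM was -0.002 to 0.112 for synthesis and 0.486 to 0.556 for breakdown. The differences of the pair ratios kept their sign in all 10 pairs, also with other pseudocounts and after quantile normalization, but their sizes for SGR2 over SGR1 (0.61 to 1.88) and CLH2 over CLH1 (0.07 to 1.39) depended on these choices. The counts of 11 and 8 lower came without sme1 replicate 2, and those of 2 root markers (of 3 tested) and 5 senescence markers without sme1 replicate 1. No gene of the pathway changed its call with a pseudocount of 0.1 in place of 1.

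Libraries that share a number were not treated as pairs in the main fits. Their deviations correlated only weakly, at 0.0168, 0.0562 and 0.0322, although each library correlated best with its own number. These values do not settle whether the libraries are paired. With replicate block the chlorophyll genes had 19 called higher and 7 lower, while leaf markers called higher became 0 and floral markers 2. Depth, which limits low genes such as SGR2 and CLH2 most, is unknown.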
